A study of Mus musculus with 19 samples.

Results

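Preleptotene germ cells of Stra8 heterozygous mice were sorted from testes with high or low STRA8 protein, and 2 high-STRA8 RNA-seq libraries were compared with 2 low-STRA8 libraries. The genes compared were the 12168 protein-coding genes above 1 TPM (a level scaled for transcript length and for the total of the library) in at least 1 of those 4 libraries, out of 22419 genes in the tables and 4 out of 19 libraries of the series. All mice were C57BL/6 males carrying Ddx4-Cre/+ and Rosa26-tdTomato/+, so that cells of the germ line, in which Ddx4-Cre is active, fluoresced and could be sorted. They were treated with WIN18,446, which blocks retinoic acid synthesis, on postnatal days 2 to 8, given retinoic acid on day 9, and their testes were taken about 6.75 days later. The low- and high-STRA8 groups shared the Stra8+/- genotype and therefore a single working copy of Stra8. They differed in how strongly a piece of the same testis stained for STRA8, which the study read as an early and a mid to late preleptotene stage. That staining was scored per testis and not per sorted cell. A further 3 libraries came from Stra8-deficient (Stra8-/-) cells on the same schedule and are given beside the comparison. Differences from them use the same low-STRA8 libraries as the main comparison and are not independent of it.

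Preleptotene is the stage at which a male germ cell replicates its DNA for the last time before the meiotic divisions. STRA8 is induced by retinoic acid and is required for entry into meiotic prophase. Meiotic prophase needs cohesins that hold the replicated chromosomes on an axis, programmed DNA breaks, proteins that exchange strands between homologs, and a synaptonemal complex that zips homologs together.

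Estimated counts summed to between 25049625 and 29184349 per library in the 4, and 90.7% to 93.1% of them lay on the protein-coding genes joined to the TPM tables. Replicates differed by more than counting noise, and the chi-square of their counts over its degrees of freedom was 36.7 between the low-STRA8 and 9.40 between the high-STRA8 libraries. The common coefficient of variation between replicates was 16.9% in the edgeR fit, which had 4 residual degrees of freedom. Low-STRA8 replicate 2 stood apart in Sertoli cell markers: the 22 listed markers summed to 456 TPM there, and to between 1237 and 1708 TPM in the other 6 libraries. The list of hemoglobin and macrophage markers summed to 58.9 and 57.8 TPM in low-STRA8 cells and to 4.44 and 12.1 TPM in high-STRA8 cells. Of its 18 markers only 5 were above 1 TPM, and the 4 of them called lower by edgeR were the hemoglobin genes. The other, Fcer1g, stood at 3.38 and 0.28 TPM in low-STRA8 and at 1.21 and 1.66 TPM in high-STRA8 cells. Among markers of pachytene and later germ cells, Pgk2, Adam2, Adam3, Acr, Prm3 and Akap4 were at 0 in all 4 libraries. Of the 24 genes in that list, 7 were above 1 TPM. By edgeR, 3 of these were higher in high-STRA8 cells (Hspa2, Clgn and Crem) and 1 was lower (Tbpl1). Hspa2 went from 23.4 and 21.8 TPM to 42.1 and 41.5 TPM, and Tbpl1 from 107 and 114 TPM to 71.0 and 70.2 TPM. The list summed to 186 and 188 TPM in low-STRA8 cells and to 189 and 191 TPM in high-STRA8 cells.

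Stra8 itself (ENSMUSG00000029848, chromosome 6 of GRCm38, 34920163 to 34939344) checks the labels. It stood at 315 and 236 TPM in the low-STRA8 libraries and at 1099 and 1248 TPM in the high-STRA8 libraries, with 17.97, 22.8 and 5.16 TPM in Stra8-deficient cells. The mRNA was thus ordered like the protein stain, with no overlap between groups. It was 3.94-fold higher in high-STRA8 than in low-STRA8 cells (log2 fold change 1.98, SE 0.433, adjusted p = 0.00843 by edgeR), a call lost when high-STRA8 replicate 2 was left out (adjusted p = 0.0963). The RNA was bulk RNA, so fewer cells of a type and less of an RNA per cell cannot be told apart in any of the values here.

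Of the 12168 genes, 2688 were higher in high-STRA8 cells (22.1%) and 2336 were lower (19.2%), at an adjusted p below 0.05 in edgeR. These counts were 1619 and 1055 without high-STRA8 replicate 1, and 1184 and 515 without high-STRA8 replicate 2. The changes of at least 2-fold were unequally divided, with 1015 genes higher and 482 lower. Calls were 53.5% upward with counts and 63.4% upward with limma on log2(TPM + 1), a scale on which the median of all genes lay 0.122 above 0, against 0.01 in the count fit. Transcript length went with the fold change throughout, and is described first because it bears on the gene groups that follow.

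Long transcripts were higher and short transcripts lower in high-STRA8 cells. Sorted by length into 5 classes of equal size, the median log2 fold change went from -0.36 among transcripts of 251 to 1474 bases, through -0.15, -0.02 and 0.14, to 0.43 among those over 4427 bases. In the shortest class, 167 genes were called higher and 804 lower. In the longest class the split was the reverse, with 1100 higher and 153 lower. Across genes, Spearman's rho between log2 fold change and length was 0.37 (12168 genes in the same 4 libraries, which are not independent replicates). It was also 0.37 for coding length alone, 0.15 for the 3′ UTR, 0.08 for the 5′ UTR, 0.27 for the genomic span of the gene and -0.13 for GC content. Among genes with the shortest coding sequences, the median log2 fold change went from -0.37 with the shortest 3′ UTRs to -0.12 with the longest, and among genes with the longest coding sequences it lay between 0.30 and 0.42 in all 3 classes of 3′ UTR length.

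The libraries were also compared with each other by length class. Deviations from their shared mean show how libraries differ, and not in which group a change arose. As a deviation from the mean of the 7 libraries, the median gene of the shortest class stood at 0.22 in both low-STRA8 libraries and that of the longest class at -0.26 and -0.24. High-STRA8 replicates 1 and 2 sloped the opposite way, from -0.10 and -0.16 to 0.15 and 0.18. The Stra8-deficient libraries did not share 1 slope: replicates 1 and 2 went from -0.14 and -0.07 to 0.18 and 0.10, as in high-STRA8 cells, while replicate 3 went from 0.11 to -0.02. Long transcripts thus lay above their mean in both high-STRA8 and 2 of 3 Stra8-deficient libraries, and furthest below it in both low-STRA8 libraries.

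**Figure D1:**
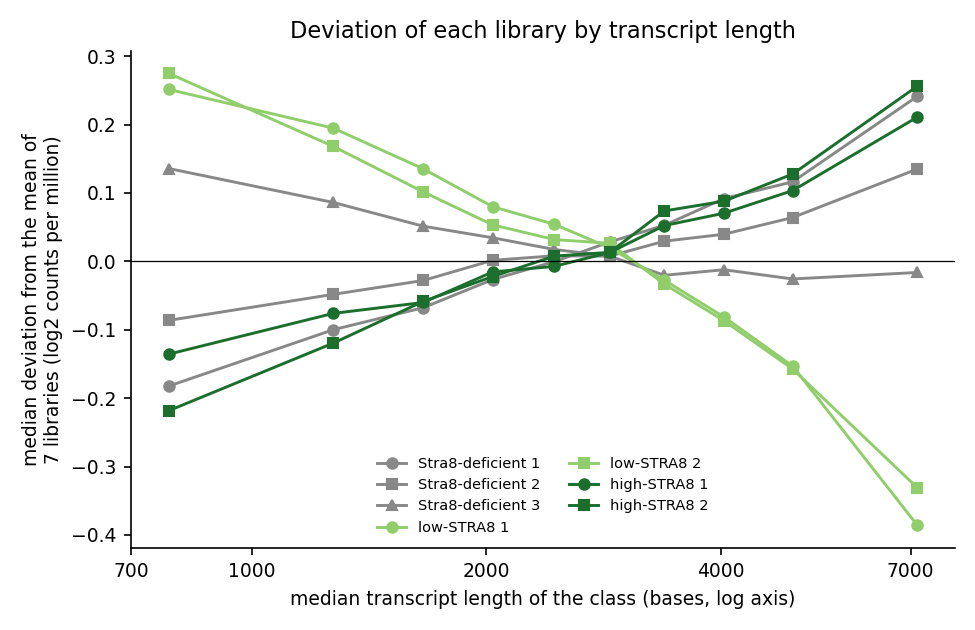
Median deviation of each RNA-seq library from the mean of the 7 libraries (log2 CPM) for 10 classes of genes by transcript length (bases, log axis). Both low-STRA8 lines fall with length, both high-STRA8 lines rise, and the Stra8-deficient lines lie between -0.18 and 0.24 with 2 of the 3 rising.

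A shift toward longer transcripts was also present between transcripts of 1 gene. In 1612 genes with 2 transcripts of at least 2 TPM that differed at least 1.5-fold in length, the ratio of the longer to the shorter transcript was higher in high-STRA8 cells by a median of 0.32 on the log2 scale (0.5 TPM added to each). It was above 0 in 69.7% of these genes. In 3 classes by length ratio (medians 1.68, 2.28 and 4.11) the shift was 0.30, 0.34 and 0.32. It thus did not grow with the ratio, unlike the trend across genes. Levels per transcript are estimates from reads that transcripts of a gene can share. Without overlap between the groups, the longer transcript gained in 757 genes and lost in 216. With 2 libraries a group, some genes separate in each direction without any difference between the groups. The library medians of the ratio were -0.18 and -0.17 in low-STRA8 cells, 0.15 and 0.17 in high-STRA8 cells, and 0.20, -0.06 and -0.21 in Stra8-deficient cells. The causes of the trend across genes and of this shift were not tested.

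Removing the smooth length trend of each library left 2398 genes higher (19.7%) and 2104 lower (17.3%). Of the 2688 genes first called higher, 2029 stayed higher, and of the 2336 called lower, 1596 stayed lower. In 8 genes the call went from higher to lower, and in 0 from lower to higher. Values given as corrected below have this trend removed. Differences between low-STRA8 and Stra8-deficient cells are given without this correction, and they also went with length. The median log2 difference of Stra8-deficient minus low-STRA8 cells was -0.27 in the shortest of the 5 length classes and 0.32 in the longest.

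**Figure D2:**
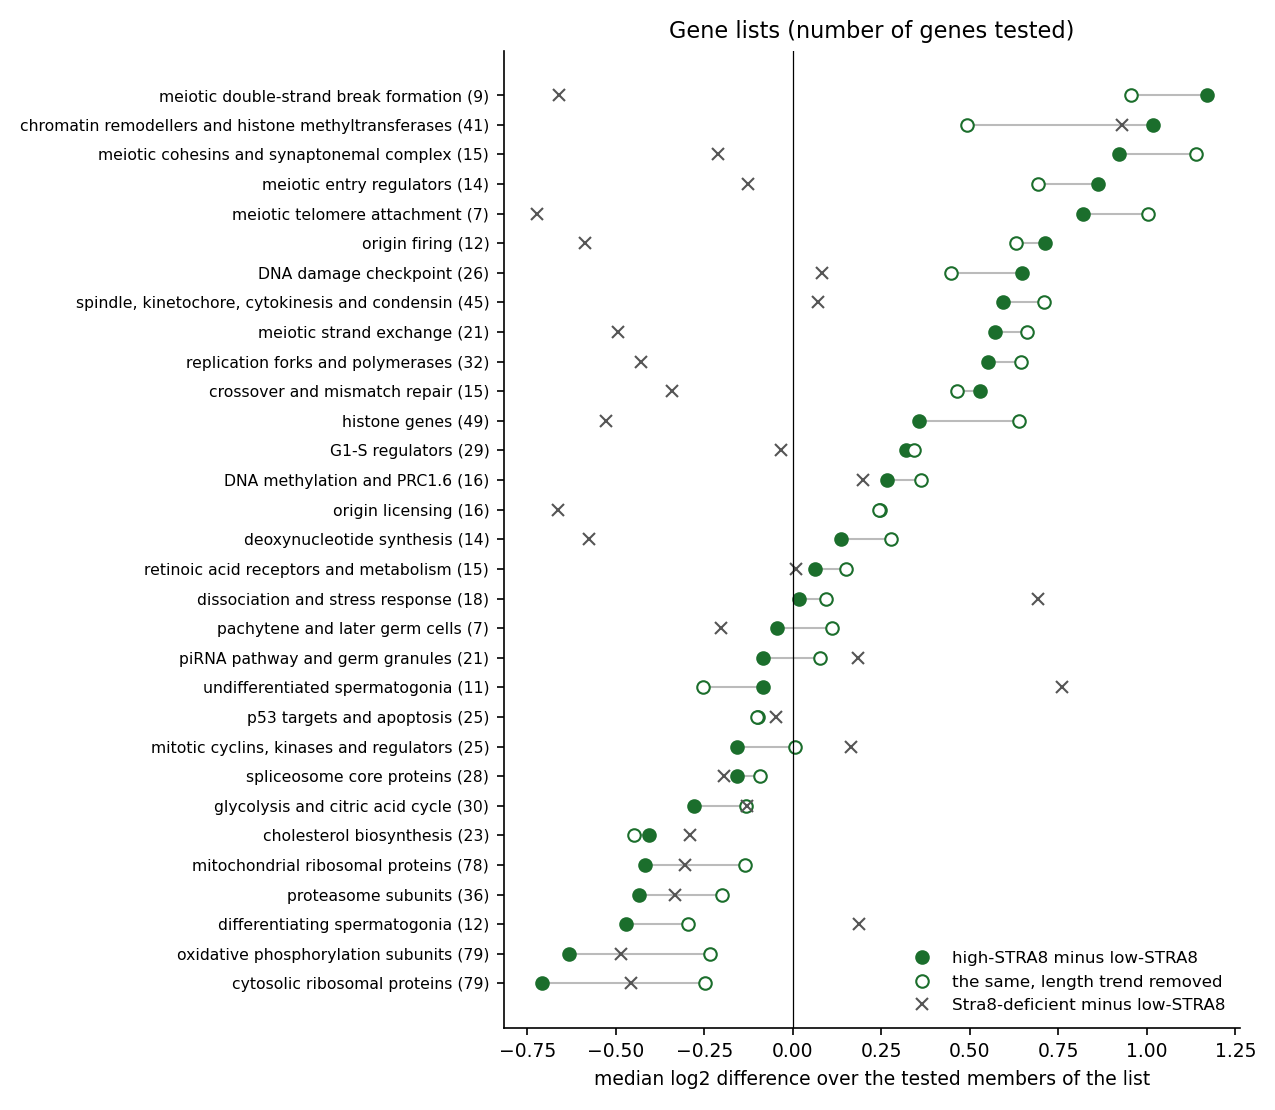
Median log2 difference over the tested members of each gene list, for high-STRA8 minus low-STRA8 cells before (filled) and after (open) removal of the length trend, and for Stra8-deficient minus low-STRA8 cells (crosses), which share the low-STRA8 libraries. Meiotic lists lie between 0.46 and 1.17 before and after correction, ribosomal proteins move from -0.71 to -0.25, and chromatin remodellers from 1.02 to 0.49.

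Genes of meiotic prophase were mostly higher in high-STRA8 cells. Of 15 genes for cohesins and the synaptonemal complex, 12 rose and 1 fell, with a median log2 fold change of 0.92 (1.14 without the length trend). Smc1b, a meiotic cohesin subunit, went from 204 and 172 TPM to 741 and 839 TPM (log2 fold change 1.97, SE 0.226, adjusted p = 0.000867). Rad21l, another subunit of meiotic cohesin, went from 89.4 and 67.2 TPM to 190.4 and 207 TPM (1.22, SE 0.145, adjusted p = 0.000969). Sycp2, a protein of the chromosome axis, rose from 22.96 and 22.2 TPM to 124 and 166 TPM (2.59, SE 0.333, adjusted p = 0.00122). Its level in Stra8-deficient cells (75.7, 76.4 and 35.2 TPM) exceeded that of low-STRA8 cells (log2 fold change of low-STRA8 minus Stra8-deficient cells -1.29, adjusted p = 0.0181). The meiotic cohesin Rec8 did not pass the test, at 134 and 129 TPM against 135 and 149 TPM. Trip13, an ATPase that strips axis proteins, was the 1 that fell, from 79.97 and 72.9 TPM to 63.4 and 59.6 TPM (-0.42, adjusted p = 0.0146). That call ended without either high-STRA8 library.

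Of 9 genes for the formation of meiotic double-strand breaks, 6 rose and 1 fell (median 1.17, corrected 0.96). Prdm9 encodes the histone methyltransferase that chooses where breaks are made. Its level was 29.7 and 21.2 TPM in low-STRA8 cells and 132 and 158 TPM in high-STRA8 cells (log2 fold change 2.43, SE 0.182, adjusted p = 0.000417), and 28.98, 25.7 and 21.4 TPM in Stra8-deficient cells. Low-STRA8 and Stra8-deficient libraries overlapped for this gene (difference 0.15, adjusted p = 0.543). Ccdc36, an axis protein that promotes breaks, rose from 41.3 and 33.0 TPM to 92.9 and 98.4 TPM (1.26, adjusted p = 0.000684) and lay lower still without Stra8, at 17.96, 19.1 and 15.3 TPM. Ankrd31, a partner of the break machinery, rose from 17.1 and 19.1 TPM to 54.2 and 59.6 TPM (1.53, adjusted p = 0.0012). Stra8-deficient cells held as much of it as high-STRA8 cells in 2 of 3 libraries, at 57.1, 55.2 and 36.2 TPM. Spo11, which makes the break, stood at 3.66 and 4.10 TPM against 2.41 and 2.64 TPM and did not pass the test (adjusted p = 0.135). Rec114, of the same machinery, fell by 0.44 on the log2 scale (151 and 144 TPM to 125 and 124 TPM, adjusted p = 0.0467), but the call ended without any 1 of the 4 libraries and with the length trend removed (adjusted p = 0.771).

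Strand exchange genes rose in 14 of 21 cases and fell in 1 (median 0.57, corrected 0.66 with 17 higher). Brca2, which loads recombinases onto single-stranded DNA, rose from 16.8 and 14.8 TPM to 81.6 and 94.96 TPM (log2 fold change 2.39, SE 0.212, adjusted p = 0.000511). Its transcript is 10532 bases long, and the value with the length trend removed was 1.58 (adjusted p = 0.000604). Rad51ap2 was nearly off in the absence of Stra8, at 0.103, 0.0323 and 0.0339 TPM, then reached 1.41 and 0.57 TPM in low-STRA8 cells and 9.67 and 10.1 TPM in high-STRA8 cells (3.20, SE 0.441, adjusted p = 0.00152). The 3 groups were fully separated for this gene. Dmc1, the meiotic recombinase, went from 147 and 81.5 TPM to 301 and 317 TPM (1.33, SE 0.241, adjusted p = 0.00404). Xrcc2, of homologous recombination repair, was the member that fell (-0.37, adjusted p = 0.0326), a call lost without low-STRA8 replicate 2 or either high-STRA8 library. The count of 14 dropped to 6 without high-STRA8 replicate 1, to 6 without high-STRA8 replicate 2 and to 9 without low-STRA8 replicate 2.

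Among 15 crossover and mismatch repair genes, 10 rose (median 0.53, corrected 0.46). Hfm1, a helicase needed for crossovers, rose from 13.5 and 7.81 TPM to 50.8 and 63.7 TPM (log2 fold change 2.34, SE 0.296, adjusted p = 0.00117). Msh5, a mismatch repair homolog that stabilizes crossover intermediates, rose from 9.04 and 6.58 TPM to 22.2 and 25.5 TPM (1.52, SE 0.223, adjusted p = 0.00191). Pms2, a mismatch repair endonuclease subunit, had a smaller and tighter difference, 42.7 and 35.03 TPM against 77.3 and 75.7 TPM (0.93, SE 0.107, adjusted p = 0.00087). Without high-STRA8 replicate 1 or 2, 5 of the 15 were called higher. Of 7 genes that attach telomeres to the nuclear envelope, 6 rose (median 0.82, and 1.003 corrected), and 3 without high-STRA8 replicate 2. Majin and Terb1 encode partners in that attachment complex. Majin went from 30.2 and 13.7 TPM to 103 and 100.03 TPM (2.12, SE 0.382, adjusted p = 0.00399) and Terb1 from 10.6 and 7.58 TPM to 39.7 and 44.1 TPM (2.11, SE 0.211, adjusted p = 0.00061). In Stra8-deficient cells Majin was lower than in low-STRA8 cells, at 2.87, 5.63 and 5.30 TPM (low minus deficient 2.38, adjusted p = 0.00399), while Terb1 stood at 11.3, 10.6 and 7.77 TPM and did not pass that test (0.05, adjusted p = 0.885).

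Regulators of meiotic entry rose in 11 of 14 cases (median 0.86, corrected 0.69), with 7 of 14 without high-STRA8 replicate 2. Gcna, a germ cell nuclear acidic protein, went from 223 and 238 TPM to 1042 and 868 TPM (log2 fold change 1.94, SE 0.138, adjusted p = 0.000417). Mybl1, a transcription factor of meiotic prophase, went from 8.93 and 6.48 TPM to 30.02 and 29.6 TPM (2.17, SE 0.24, adjusted p = 0.000819). Taf4b, a germline TFIID subunit, rose less, from 124 and 103 TPM to 198 and 199.6 TPM (0.71, SE 0.11, adjusted p = 0.00234). Pparg was added to the text after its values were seen because it was graded across the 3 groups. This nuclear receptor stood at 0.101, 0 and 0.141 TPM in Stra8-deficient, 5.46 and 1.16 TPM in low-STRA8 and 33.4 and 42.0 TPM in high-STRA8 cells (3.42 for high minus low, SE 0.616, adjusted p = 0.00398).

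**Figure D3:**
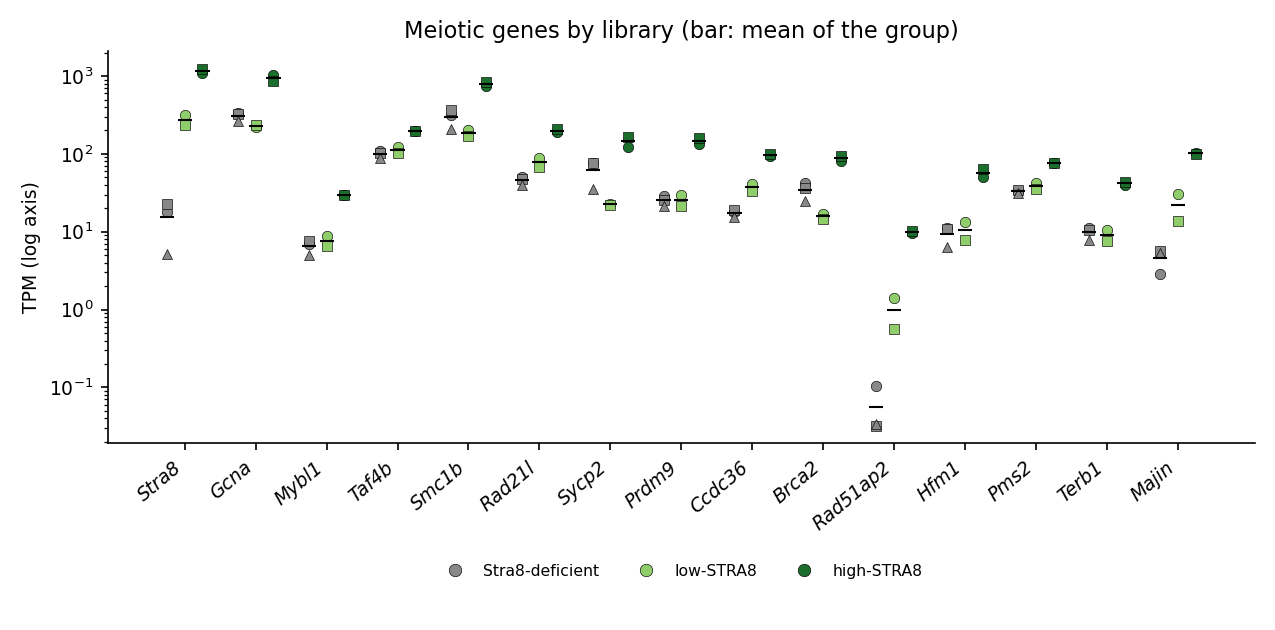
TPM (log axis) of 15 meiotic genes in each library: 3 Stra8-deficient, 2 low-STRA8 and 2 high-STRA8, with a bar at the mean of each group. In each of these genes both high-STRA8 libraries lie above both low-STRA8 libraries. The Stra8-deficient libraries lie below the low-STRA8 ones in Stra8, Rad21l, Ccdc36, Rad51ap2, Pms2 and Majin. They lie above them in Gcna, Smc1b, Sycp2 and Brca2, and overlap them in the other genes.

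Taken over the 5 lists of axis, break, exchange, crossover and telomere genes and the entry regulators, 59 of 81 genes rose and 3 fell (median 0.82). The length correction left these figures nearly in place, at 61, 3 and 0.84. The Stra8-deficient mean was nearer to the high-STRA8 than to the low-STRA8 mean in 1 of the 12 higher axis genes, 1 of 6 break genes and 1 of 14 exchange genes, and in 0 of the 10 crossover, 6 telomere and 11 entry genes.

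STRA8 binding was measured in other animals by FLAG ChIP-seq of Stra8 FLAG/FLAG and wild-type testes, and did not enter the RNA fit. A summit within 1 kb of a start site, in at least 2 of 3 FLAG libraries and in no wild-type library, was found at 1243 of 2688 genes that were higher (46.2%), at 227 of 2336 that were lower (9.72%) and at 2808 of 12168 tested (23.1%). With the length trend removed the shares were 46.6% and 11.8%. Genes with a summit lay above those without one in each of the 5 length classes: medians were 0.01 and -0.41 in the shortest class and 0.68 and 0.30 in the longest. The share of genes with a summit itself grew with length, from 13.4% to 32.05%.

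**Figure D4:**
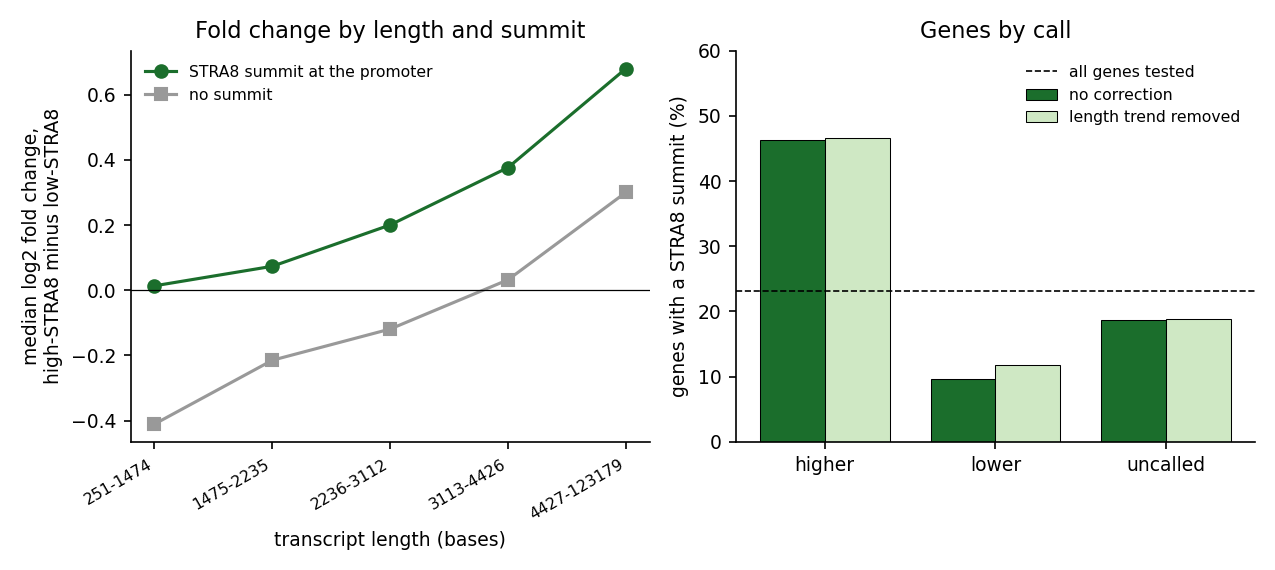
Left, median log2 fold change of high-STRA8 minus low-STRA8 cells by class of transcript length (bases), for genes with and without a STRA8 summit at the promoter. Right, percent of genes with a summit among those called higher, lower or not called, before and after removal of the length trend, with a dashed line at the 23.1% of all genes tested.

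Promoters of 4 meiotic genes that rose are shown because their summits fall beside a match to CNCCTCAG, the motif described for STRA8 peaks, on either strand (CTGAGGNG on the other). They were picked for that position. Each line gives the 120 bases before the RefSeq start site (GRCm38.p6), 5′ to 3′ on the strand of the gene, with the match in capitals. All 4 genes are on the minus strand: Hormad2 at chr11:4441083-4441202, Rad51ap1 at chr6:126939588-126939707, Hfm1 at chr5:106925891-106926010 and Msh5 at chr17:35046623-35046742.
Hormad2: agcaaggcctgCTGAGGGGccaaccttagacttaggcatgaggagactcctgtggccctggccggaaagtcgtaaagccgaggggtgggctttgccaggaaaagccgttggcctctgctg
Rad51ap1: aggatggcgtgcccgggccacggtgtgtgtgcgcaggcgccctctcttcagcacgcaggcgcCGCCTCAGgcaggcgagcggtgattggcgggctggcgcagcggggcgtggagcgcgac
Hfm1: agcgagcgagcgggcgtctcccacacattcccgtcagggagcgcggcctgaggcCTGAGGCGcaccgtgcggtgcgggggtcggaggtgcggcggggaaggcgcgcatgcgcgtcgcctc
Msh5: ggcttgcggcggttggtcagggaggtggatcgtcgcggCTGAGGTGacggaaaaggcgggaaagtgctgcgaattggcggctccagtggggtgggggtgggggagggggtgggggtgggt

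In the Hfm1 promoter the match begins 66 bases before the start site, and the summits of the 3 FLAG libraries lie 51, 54 and 37 bases before it. The Msh5 match begins 82 bases before the start and the summits lie at 84, 34 and 63 bases. For Rad51ap1 the match begins at 58 bases and the summits lie at 100, 52 and 17 bases, and for Hormad2 the match begins at 109 bases and 2 summits lie at 108 and 90 bases, with the third 3 bases past the start. Hormad2, an axis protein, rose from 72.0 and 64.5 TPM to 112 and 125 TPM (log2 fold change 0.73, adjusted p = 0.00244), and Rad51ap1, which aids strand invasion, from 59.9 and 44.1 TPM to 116 and 122 TPM (1.09, adjusted p = 0.00243). The motif was in 2606 of 32817 promoter windows of the RefSeq table (250 bases before to 50 after the start, 7.94%). Among tested genes with a window in that table, 16.5% of those that were higher held it, against 6.20% of those that were lower and 11.3% of all. The study derived the motif from peaks of the same FLAG libraries. Those peaks lay at bound promoters of genes higher in the same high-STRA8 libraries than in Stra8-deficient cells. The shares are therefore not independent of how the motif was found.

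Many DNA replication genes were higher in high-STRA8 cells. Origin firing factors rose in 8 of 12 cases and fork proteins and polymerases in 17 of 32, with 2 that fell (medians 0.71 and 0.55, corrected counts 9 and 20). Licensing factors, which load the replicative helicase, rose in 3 of 16 and fell in 1 (median 0.25, corrected 0.24 with 5 higher). Of all genes 22.1% were higher and 19.2% lower, and both licensing counts of the main fit are under those shares. The count of higher licensing genes depended on the tool, with 6 by DESeq2, 7 by limma and 8 at an unadjusted edgeR p below 0.05, and the steps were not compared by a test. Ticrr, which helps to start origins, stood at 19.98 and 20.2 TPM in low-STRA8 cells and at 72.3 and 70.1 TPM in high-STRA8 cells (log2 fold change 1.73, SE 0.115, adjusted p = 0.000417). Gins3, a subunit of the active helicase, rose from 31.5 and 21.9 TPM to 70.4 and 72.6 TPM (1.29, adjusted p = 0.0014). Clspn, a fork checkpoint adaptor, rose from 39.9 and 33.6 TPM to 104 and 106 TPM (1.43, SE 0.1, adjusted p = 0.000417), and Pole, the leading-strand polymerase, from 136 and 104 TPM to 316 and 318 TPM (1.39, adjusted p = 0.000969). Pold2, a small polymerase delta subunit, fell from 89.8 and 110.3 TPM to 57.9 and 53.1 TPM (-1.0, adjusted p = 0.00232).

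Replication genes were also compared with Stra8-deficient cells. Low-STRA8 cells exceeded Stra8-deficient cells in 11 of 16 licensing genes, in a comparison in which 10.1% of all genes were higher in low-STRA8 cells and 14.2% lower. The other replication lists went the same way. Low-STRA8 cells were higher in 7 of 12 origin firing, 19 of 32 fork and polymerase and 10 of 14 deoxynucleotide genes, and lower in 1 of each list. The helicase subunit Mcm2 did not pass either test, at 228 and 183 TPM in low-STRA8, 226 and 215 TPM in high-STRA8 and 159, 214 and 162 TPM in Stra8-deficient cells. Orc1, the largest origin recognition subunit, was graded, with 29.5, 37.2 and 26.6 TPM without Stra8, 53.9 and 41.6 TPM in low-STRA8 and 94.3 and 94.2 TPM in high-STRA8 cells (0.89 for high minus low, adjusted p = 0.00423). Cdt1, the licensing loader, fell from 44.1 and 43.2 TPM to 37.5 and 35.2 TPM (-0.39, adjusted p = 0.0212), a call lost without low-STRA8 replicate 2 or either high-STRA8 library. Rrm2, the S-phase subunit of ribonucleotide reductase, rose from 352 and 214 TPM to 642 and 611 TPM (1.03, adjusted p = 0.0067), and Stra8-deficient cells held 96.9, 114 and 79.3 TPM. In the list of deoxynucleotide synthesis, 5 of 14 rose and 2 fell (also corrected) from low- to high-STRA8 cells, beside 22.1% higher and 19.2% lower of all genes. The higher count was 2 without low-STRA8 replicate 2 or either high-STRA8 library, and the 3 higher licensing genes became 7 without low-STRA8 replicate 1 and 1 without each of the others.

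Genes of the G1 to S transition rose in 11 of 29 cases and fell in 3 (corrected 10 and 3). Of all genes 22.1% were higher and 19.2% lower, and the count that fell is under that share. Ccnd1, cyclin D1 of the G1 phase, fell stepwise from 285, 287 and 254 TPM in Stra8-deficient to 139 and 167 TPM in low-STRA8 and 69.3 and 61.5 TPM in high-STRA8 cells (high minus low -1.34, SE 0.135, adjusted p = 0.00061). Ccne1, cyclin E1 of S phase entry, rose from 24.9 and 20.1 TPM to 51.0 and 50.9 TPM (1.06, adjusted p = 0.00195). The count of 11 went to 5 without high-STRA8 replicate 1 or 2 and to 6 without low-STRA8 replicate 2.

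Mitotic genes divided between large increases and decreases. Of 25 cyclins, kinases and regulators of mitosis, 8 rose and 11 fell (7 each with the length trend removed), beside 22.1% higher and 19.2% lower of all genes. Those that fell included Ccnb1, the mitotic cyclin B1, from 36.4 and 29.5 TPM to 10.8 and 11.7 TPM (log2 fold change -1.58, SE 0.173, adjusted p = 0.000804), and Plk1, a mitotic kinase, from 10.6 and 11.5 TPM to 3.96 and 3.02 TPM (-1.78, adjusted p = 0.0011). Both stood higher still in Stra8-deficient cells, at 50.8, 49.1 and 64.2 TPM for Ccnb1 and 22.4, 18.8 and 24.8 TPM for Plk1. Ccnb3, a cyclin B of meiosis, rose instead, from 14.7 and 10.1 TPM to 42.5 and 45.1 TPM (1.73, adjusted p = 0.00061). The 11 that fell became 7 without high-STRA8 replicate 1 and 6 without replicate 2.

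Mki67, the proliferation antigen that coats mitotic chromosomes, had the largest log2 fold change relative to its error among the named genes. It held 2.38 and 2.75 TPM in low-STRA8 and 49.2 and 58.5 TPM in high-STRA8 cells, 19.6-fold more (log2 fold change 4.29, SE 0.157, adjusted p = 2.24e-05). Stra8-deficient cells held 18.6, 17.5 and 15.9 TPM, so low-STRA8 cells were the lowest of the 3 groups (low minus deficient -2.58, adjusted p = 0.00047). Its transcript is 10061 bases long, and the value with the length trend removed was 3.52. Cenpf, a large kinetochore protein, had the same order, with 6.52 and 6.09 TPM in low-STRA8, 71.4 and 80.1 TPM in high-STRA8 (3.50, SE 0.257, adjusted p = 0.000417) and 42.1, 49.1 and 26.2 TPM in Stra8-deficient cells. Spindle, kinetochore and condensin genes rose in 34 of 45 cases and fell in 3 (median 0.59, corrected 0.71 with 30 higher), and in 19 without high-STRA8 replicate 2. Bub3, a checkpoint protein, was among the 3, going from 71.8 and 75.5 TPM to 20.9 and 20.1 TPM (-1.82, SE 0.17, adjusted p = 0.000563).

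**Figure D5:**
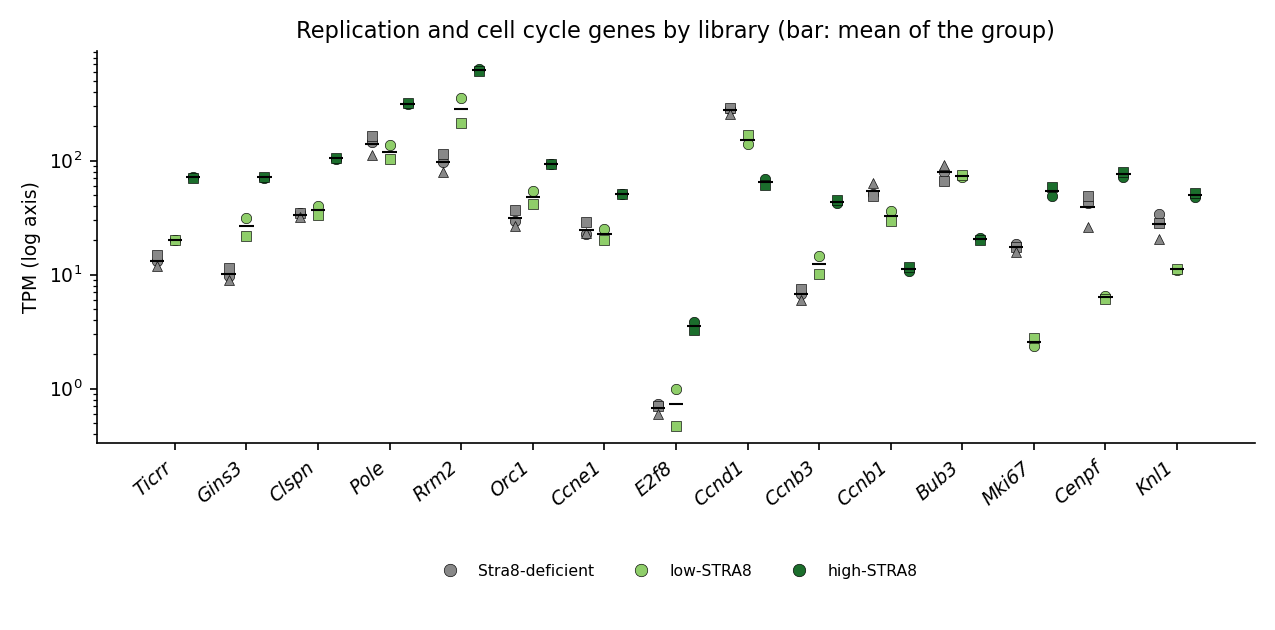
TPM (log axis) of 15 replication and cell cycle genes in each of the 7 libraries, with a bar at the mean of each group. Ccnd1, Ccnb1 and Bub3 are lowest in high-STRA8 cells, the other genes are highest there, and Mki67, Cenpf and Knl1 are lowest in low-STRA8 cells.

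Genes for large chromatin proteins were higher, and lost part of that difference with the length correction. Of 41 chromatin remodellers and histone methyltransferases, 34 rose and 1 fell, with a median log2 fold change of 1.02. Their median transcript is 7784 bases, and with the length trend removed 21 rose and the median of all 41 was 0.49. Srcap, the ATPase that deposits H2A.Z, rose from 11.4 and 14.1 TPM to 54.1 and 54.3 TPM (2.14, SE 0.165, adjusted p = 0.000432, corrected 1.53). Setd1a, an H3K4 methyltransferase, rose from 45.9 and 45.1 TPM to 124 and 127 TPM (1.37, adjusted p = 0.000417, corrected 0.97). Kmt2d, a longer H3K4 methyltransferase chosen after its values were seen, went from 1.48 and 2.56 TPM to 7.79 and 7.34 TPM (1.80, adjusted p = 0.00166), and its call ended with the correction (0.49, adjusted p = 0.129). In Stra8-deficient cells Kmt2d stood at 11.4, 9.85 and 8.28 TPM, above both other groups. The Stra8-deficient mean was nearer to high-STRA8 than to low-STRA8 cells for 29 of the 34 that rose, against 1177 of 2688 higher genes in all (43.8%). Among the higher genes of the longest of the 5 length classes it was so for 637 of 1100 (57.9%). These counts are without the length correction.

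Of 16 genes of DNA methylation and the PRC1.6 repressor, 5 rose and Dnmt3b alone fell (corrected 7 and 2), beside 22.1% higher and 19.2% lower of all genes. Dnmt1, the maintenance methyltransferase, rose from 83.1 and 78.3 TPM to 210.4 and 222 TPM (log2 fold change 1.33, SE 0.0961, adjusted p = 0.000417). Tet3, a dioxygenase that oxidizes methylcytosine, rose from 6.80 and 7.56 TPM to 27.5 and 26.8 TPM (1.78, adjusted p = 0.000582, corrected 1.01). Dnmt3b, a de novo methyltransferase, fell from 12.6 and 16.2 TPM to 6.62 and 6.52 TPM (-1.24, SE 0.211, adjusted p = 0.00322). It is one of 7 of 12 markers of differentiating spermatogonia that fell (median -0.47, corrected -0.30 with 5 lower). Dmrtb1, a regulator of that stage, fell from 152 and 192 TPM to 114 and 105 TPM (-0.79, adjusted p = 0.00761). The 7 became 4 without high-STRA8 replicate 1 and 1 without replicate 2. Of 11 markers of undifferentiated spermatogonia, 0 passed by edgeR or DESeq2, 1 was higher at an unadjusted edgeR p below 0.05, 1 was higher by limma and 1 was lower with the length correction.

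The short, abundant transcripts of ribosomes and mitochondria were lower. Of 79 cytosolic ribosomal protein genes, 66 fell (median -0.71), and with the length trend removed 25 fell (median of all 79 then -0.25). Of 79 subunits of oxidative phosphorylation, 58 fell (median -0.63), and 29 with the correction (median -0.23). Rps2, of the small ribosomal subunit, fell from 2342 and 2445 TPM to 1138 and 982 TPM (log2 fold change -1.24, SE 0.177, adjusted p = 0.00175, corrected -0.89). Atp5c1, of the ATP synthase, fell from 833 and 784 TPM to 461 and 444 TPM (-0.92, adjusted p = 0.00188, corrected -0.62). Cox7b, of cytochrome oxidase, fell from 46.3 and 50.9 TPM to 22.5 and 18.9 TPM (-1.39, adjusted p = 0.00202). Proteasome subunits fell in 22 of 36 cases (10 corrected) and mitochondrial ribosomal proteins in 39 of 78 (23 corrected). Psmd5, a proteasome assembly chaperone with a transcript of 4397 bases, fell from 87.8 and 92.3 TPM to 51.2 and 49.4 TPM (-0.95, adjusted p = 0.00101). Without high-STRA8 replicate 2 the 4 counts were 19, 13, 4 and 3. Without high-STRA8 replicate 1 those of the proteasome and the mitochondrial ribosome were 9 and 16, and without low-STRA8 replicate 2 they were 14 and 18.

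DNA damage checkpoint genes rose in 18 of 26 cases and fell in 1 (median 0.65, corrected 0.45 with 14 higher). Mdc1, a scaffold at DNA breaks, rose from 45.4 and 37.8 TPM to 171 and 189 TPM (log2 fold change 2.02, SE 0.221, adjusted p = 0.000804). Nbn, of the MRN end-sensing complex, rose from 34.9 and 29.5 TPM to 82.8 and 90.7 TPM (1.31, SE 0.13, adjusted p = 0.00061). Chek2 was the 1 that fell, from 10.6 and 13.5 TPM to 6.88 and 9.19 TPM (-0.71, SE 0.227, adjusted p = 0.0361). With the length trend removed its value was -0.63 (adjusted p = 0.0573), and it lay between -0.94 and -0.48 with 1 library left out. H2afx, whose histone is phosphorylated at breaks, was counted with the histone genes and not in this list. It fell from 78.6 and 97.4 TPM to 40.1 and 39.6 TPM (-1.30, SE 0.15, adjusted p = 0.000874). Trp53, the p53 tumour suppressor, fell from 40.2 and 42.7 TPM to 21.1 and 21.3 TPM (-1.08, SE 0.127, adjusted p = 0.000943). Of 25 p53 targets and apoptosis genes, 3 rose and 7 fell (corrected 3 and 6), beside 22.1% higher and 19.2% lower of all genes. Fewer members of this p53 list were called in each direction without high-STRA8 replicate 2. The higher ones were 2 without high-STRA8 replicate 1 or low-STRA8 replicate 2, and 5 with the replicate block. The 18 checkpoint genes became 9 without high-STRA8 replicate 2.

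Some of the largest changes lie in families whose copies are nearly alike, where the split of reads between copies is uncertain. Gm21704 was at 20.3 and 82.4 TPM in high-STRA8 and at or near 0 in low-STRA8 cells, at least 230-fold higher against a floor of 3 counts per library. Gm12184 and the histone gene Hist1h2ai were at 0 in both high-STRA8 libraries, at least 65.2-fold and 14.9-fold lower. In all, 23 genes had estimated counts that rounded to 0 in both low-STRA8 libraries, of which 8 were called, and 18 had such counts in both high-STRA8 libraries, of which 10 were called. Histone genes, whose copies also share sequence, rose in 7 of 49 cases and fell in 5 (corrected 9 and 2), both under the shares of all genes. Without either high-STRA8 library 1 was higher and 2 were lower, and without low-STRA8 replicate 2 these were 1 and 3, while without low-STRA8 replicate 1 they were 9 and 3. Another large increase was that of Lars2, the mitochondrial leucyl-tRNA synthetase, from 56.5 and 59.2 TPM to 754 and 677 TPM (log2 fold change 3.52, SE 0.251, adjusted p = 0.000417). Sharing of its reads with other sequences was not tested. Among longer transcripts that fell, Sema6b, a semaphorin, went from 6.28 and 8.15 TPM to 1.961 and 1.88 TPM (-2.05, SE 0.196, adjusted p = 0.000582), and Arntl, a clock transcription factor, from 7.43 and 10.4 TPM to 3.001 and 2.60 TPM (-1.84, SE 0.338, adjusted p = 0.00432).

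Markers of other cells moved with the groups in part. All 4 hemoglobin genes, whose near-identical copies may share reads, fell, for example Hbb-bs from 22.9 and 26.97 TPM to 0.327 and 2.55 TPM (log2 fold change -4.29, SE 0.671, adjusted p = 0.00238), and 3 did so without either high-STRA8 library. Of 20 Sertoli cell genes, 1 was called, the secreted chaperone Clu, at 148 and 51.1 TPM against 392 and 424 TPM (1.93, SE 0.413, adjusted p = 0.00778). With low-STRA8 replicate 2 as the only low-STRA8 library 18 of the 20 were called higher, and with replicate 1 as the only one 1 was higher and 5 were lower. Clu lost its call when high-STRA8 replicate 2 was left out (adjusted p = 0.0792). Of 8 Leydig cell genes, 0 passed by edgeR, DESeq2 or limma and 2 were lower at an unadjusted edgeR p below 0.05. Without low-STRA8 replicate 2, 4 of them were lower. The part of these cells in other results was not tested.

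Non-coding genes were counted for the same libraries in a fit with the coding genes added. Of 1172 with at least 50 counts, 330 were higher (28.2%) and 93 lower (7.94%), with a median log2 fold change of 0.31. Without high-STRA8 replicate 1 or 2 the higher ones numbered 196 and 170, and without high-STRA8 replicate 2 or low-STRA8 replicate 2 the lower ones numbered 21 and 41. TEC entries, a provisional class of mostly unspliced RNAs, rose in 92 of 150 cases and fell in 1 (median 1.54). Antisense RNAs rose in 62 of 167 and long intergenic RNAs in 59 of 170 (medians 0.69 and 0.61). Processed pseudogenes, spliced copies that resemble their coding parents, rose in 45 of 400 and fell in 49 (median -0.49). Of 96 non-coding genes lying on the strand of a tested coding gene, 42 rose and the median of all 96 was 1.05, while 37 of their 87 host genes rose and the median of all 87 was 0.29. Malat1, a long RNA retained in the nucleus and named after its values were seen, stood at 1.17 and 1.34 TPM in low-STRA8, 11.6 and 14.6 TPM in high-STRA8 (log2 fold change 3.15, SE 0.32, adjusted p = 0.00114) and 12.98, 11.5 and 7.18 TPM in Stra8-deficient cells. Gm2436, an unprocessed pseudogene whose reads may belong to a copy, had the same order, with 0.37 TPM at most in low-STRA8, 55.6 and 58.1 TPM in high-STRA8 and 67.3, 45.5 and 40.99 TPM in Stra8-deficient cells.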

How the data were processed

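RNA from sorted germ cells was sequenced in 7 libraries as poly(A)-selected, stranded, single-end reads. The authors filtered the reads, quantified them with kallisto 0.43.0 on Ensembl transcripts, and deposited estimated counts per transcript. They also deposited TPM per protein-coding gene, rescaled over coding genes. STRA8 summits were called by the authors per ChIP-seq library with MACS2 2.1.1.20160309 on mm10 and deposited with a score, the −log10 p of the summit. Tables of counts divided by the authors' size factors were not used here.

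Estimated counts were summed per gene through GENCODE annotation, checked against the deposited TPM (within 0.2% or 0.003 TPM) and rounded. All 12168 genes joined of 12174 above 1 TPM were fitted with edgeR 4.0.16 (TMM, robust quasi-likelihood F test) on 3 groups and 7 libraries in R 4.3.3, with Benjamini-Hochberg adjustment over all genes and a threshold of 0.05. The standard error is the absolute log2 fold change over the square root of F. The length correction used each library's lowess trend on transcript length as an offset. DESeq2 1.42.0, limma 3.58.1 on log2(TPM + 1), other filters, offsets, a replicate block and leaving out each library were alternatives. The scripts were tested on simulated data. Replicates were labelled as separate samples, and p-values measure the spread between them.

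The genes, lists and tests were chosen with earlier results of these data known. Named genes were Stra8, Mki67, per list up to 3 with the smallest adjusted p and 1 against the list's direction, and the largest changes. Outside that rule, Dmc1, Hormad2, Kmt2d, Mcm2, Msh5, Plk1, Pparg, Rad51ap1, Rec8, Spo11 and Malat1 were named after their values were seen.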

Additional observations from a re-analysis of the deposited data

How the results depend on the processing

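By setting, the numbers of genes higher and lower were 2748 and 2375 with DESeq2, 3136 and 1814 with limma on log2(TPM + 1), 2658 and 2006 with no filter on TPM, 2510 and 2228 over 5 TPM, 2495 and 2288 with the 4 heterozygous libraries only, and 2596 and 2351 with length and GC trends both removed. Leaving out 1 library gave 1184 to 2978 higher and 515 to 2368 lower, the lowest without high-STRA8 replicate 2 and the highest without low-STRA8 replicate 1. The lone library of a group was then assumed to vary like the others. Of 129 named genes, 91 kept their call without any 1 of the 4 libraries, 38 did not, and 0 reversed. Same-numbered replicates did not deviate together (correlation -0.126), so the numbers were not taken as pairs. With the replicate block 2508 genes were higher and 2019 lower, and with the numbers crossed 2728 and 2336.

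The median of the shortest length class was -0.18 with limma, -0.0083 with the length trend removed, -0.0047 with length and GC trends removed, -0.31 with effective lengths as an offset and -0.44 for the shortest of 10 classes. That of the longest was 0.46, 0.0019, 0.0027, 0.40 and 0.59 in the same order, and 0.40 with the 4 heterozygous libraries. Leaving out 1 library gave -0.39 to -0.32 and 0.40 to 0.45. Requiring a summit in 3 of 3 FLAG libraries gave 29.8% of higher and 3.08% of lower genes. Non-coding genes lower numbered 53 with the length trend removed, and without 1 library 21 to 117 were lower and 170 to 315 higher. The log2 fold change turned negative for Mrps25 (-0.0273 with the length trend removed, -0.0479 with length and GC trends) and Sf3b1 (-0.0027 and -0.12), and positive for Rec114 (0.0023 with length and GC trends). The cause was not tested, except that removing the length trend removes the difference between length classes by construction. With 2 libraries a group, changes smaller than the spread between replicates were not detectable.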

Other observations

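Cholesterol biosynthesis genes fell in 10 of 23 cases and rose in 3 (median log2 fold change -0.41, and -0.45 with the length trend removed, when 12 fell). The lower ones numbered 4 without high-STRA8 replicate 1 and 3 without replicate 2, and the higher ones 1 without high-STRA8 replicate 2 or low-STRA8 replicate 2. Dhcr7, a late reductase of the pathway, fell from 43.0 and 48.0 TPM to 19.6 and 18.6 TPM (-1.30, SE 0.142, adjusted p = 0.000802 by edgeR). Mvd, an enzyme of the early pathway, fell stepwise, with 23.9, 25.9 and 22.4 TPM in Stra8-deficient, 9.79 and 11.8 TPM in low-STRA8 and 4.97 and 5.28 TPM in high-STRA8 cells (high minus low -1.21, SE 0.183, adjusted p = 0.00211). Acat2, which condenses acetyl-CoA at the head of the pathway, went the other way, from 84.0 and 47.4 TPM to 162 and 163 TPM (1.19, SE 0.215, adjusted p = 0.00396), with 21.7, 17.7 and 20.6 TPM in Stra8-deficient cells. Glycolysis and citric acid cycle genes fell in 11 of 30 cases and rose in 2 (corrected 8 and 2), beside 19.2% of all genes lower and 22.1% higher. Without either high-STRA8 library 4 fell and 0 rose by edgeR, without low-STRA8 replicate 1 the higher ones were 4, and without low-STRA8 replicate 2 they were 1. Over all 4 libraries 3 were higher at an unadjusted p below 0.05 and 3 by DESeq2. Tpi1, a glycolytic isomerase, fell from 42.3 and 39.7 TPM to 21.8 and 22.1 TPM (-1.09, SE 0.2, adjusted p = 0.00425).

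Genes of retinoic acid signalling fell in 3 of 15 cases and rose in 2 (corrected 2 and 2), near or under the shares of all genes. The 2 higher calls were lost without either high-STRA8 library and 1 was called higher without low-STRA8 replicate 2. Rxra, a nuclear receptor that partners with retinoic acid receptors, fell from 12.4 and 14.1 TPM to 5.96 and 5.39 TPM (-1.33, SE 0.153, adjusted p = 0.00087), and was 21.6, 18.4 and 22.3 TPM in Stra8-deficient cells. Of all genes, 22.1% were higher and 19.2% lower. In the piRNA and germ granule list 7 of 21 genes were higher and 6 lower (corrected 6 and 5). These became 1 and 1 without high-STRA8 replicate 2 and 4 and 2 without low-STRA8 replicate 2, and 2 were lower without high-STRA8 replicate 1 or with the replicate block. Pld6, an enzyme of the mitochondrial surface in piRNA processing, fell from 48.7 and 46.0 TPM to 25.2 and 25.2 TPM (-1.06, SE 0.151, adjusted p = 0.00169). Rnf17, a tudor protein of germ cells, rose from 104 and 81.8 TPM to 173 and 201 TPM (0.92, SE 0.153, adjusted p = 0.00298). Genes induced by tissue dissociation and stress rose in 1 of 18 cases and fell in 2, both under the shares of all genes. More of them were called in each direction without low-STRA8 replicate 1, and fewer were lower without each of the other libraries.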
